A study of Mus musculus with 26 samples.

Results

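The mitochondrial ribosomal protein genes were followed here: the genes whose symbol in the platform annotation begins with Mrpl or Mrps and a digit. They came to 74 of the 12393 named genes on the array, 47 of them Mrpl and 27 Mrps, and 127 of 22626 probe sets; where a gene had several, the probe set with the highest mean over all arrays stood for it. Expression was measured in S49 cells, a mouse T-lymphoma line, as wild type (WT) and as Kin-, a variant of this line that lacks the activity of the cAMP-dependent protein kinase PKA. Each line was untreated (0 h, 4 arrays each) or had been given 8-CPT-cAMP, an analog of cAMP that enters cells, at 100 µM for 2, 6 or 24 h (3 arrays each), 26 arrays in 8 groups. Treated cells at every time were compared with cells at 0 h, with no untreated group at the later times. Kin- stands for the loss of PKA through a variant line, so other differences between the lines enter each comparison of them. The labels do not say whether arrays of a group come from separate cultures, so the spread behind each p-value is that between arrays and could be technical. In bulk RNA, fewer cells with a transcript and less of it per cell cannot be told apart.

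The mitochondrial ribosome makes the few respiratory chain proteins that mitochondrial DNA encodes. Its RNAs come from mitochondrial DNA, but its proteins are encoded in the nucleus, made in the cytosol and imported, so building it takes the joint expression of many dispersed nuclear genes. Some of these proteins descend from bacterial ribosomal proteins and others exist in mitochondria only. The symbols Mrpl and Mrps stand for the large and the small subunit, though Mrps18a and Mrps30 sit in the large one, Mrps36 is now known as a component of the oxoglutarate dehydrogenase complex, and Mrpl58 is a peptidyl-tRNA hydrolase built into the large subunit.

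Levels are the square root of the deposited value, which was read as close to a log2 intensity; that reading is an assumption, so a change of 1 may not be an exact doubling. A gene is said to have passed at a Benjamini-Hochberg adjusted p under 0.05 in limma, adjusted over all 22626 probe sets. T-cell markers were bright: of 9 listed, 8 were measured, with mean levels from 7.47 (Cd2) to 12.54 (Cd3d), while B-cell, myeloid, erythroid and fibroblast markers had means from 1.71 to 5.73. In WT the summed T-cell markers ran from 88.5 to 90.4 untreated and from 89.5 to 93.0 at 24 h, and the summed myeloid markers from 18.5 to 19.1 and from 19.4 to 21.7. The myeloid rise was that of Itgam (2.11 at 24 h, adjusted p = 1.64e-06), with none of the other 4 measured myeloid markers passing. Of the T-cell markers Cd2 (−1.36) and Thy1 (−0.77) fell and Cd3e (1.10), Zap70 (1.06), Cd3g (0.86), Cd3d (0.78) and Ptprc (0.76) rose at 24 h. The part of these changes in the results was not tested. The 10 arrays numbered 1 to 14 and the 16 numbered 16 to 47 stood apart, with higher levels of these genes in the first. Each untreated group had 2 of its 4 arrays in the first set and each treated group 1 of 3, so values within a set are given beside the main results.

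The 74 genes were expressed at moderate to high levels in both lines. The brightest were Mrpl51 (mean level 12.92), Mrpl18 (12.45) and Mrps14 (12.17) and the dimmest Mrpl14 (7.44), Mrpl55 (8.32) and Mrpl37 (8.40). The signal of Mrpl14 still ranked at percentile 59.1 of the named genes. Probe sets differ in their response, so this order is one of signal and not of transcript amount.

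In WT cells the median level of these genes was lower at each later time. Their median level was 10.57, 10.59, 10.34 and 10.27 on the untreated arrays 1, 13, 16 and 36. It was 10.28, 10.03 and 10.15 at 2 h (arrays 2, 17 and 37), 10.14, 9.89 and 9.88 at 6 h (arrays 3, 18 and 38) and 9.88, 9.54 and 9.69 at 24 h (arrays 4, 19 and 39). The 6 h and 24 h arrays all lay below every untreated array, and at 2 h array 2 reached into their range. In Kin- cells the medians ran from 10.28 to 10.58 untreated, and from 10.27 to 10.60 over the 9 treated arrays, so the groups overlapped at each time. Median levels of all named genes stayed between 5.96 and 6.20 on all 26 arrays.

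**Figure D1:**
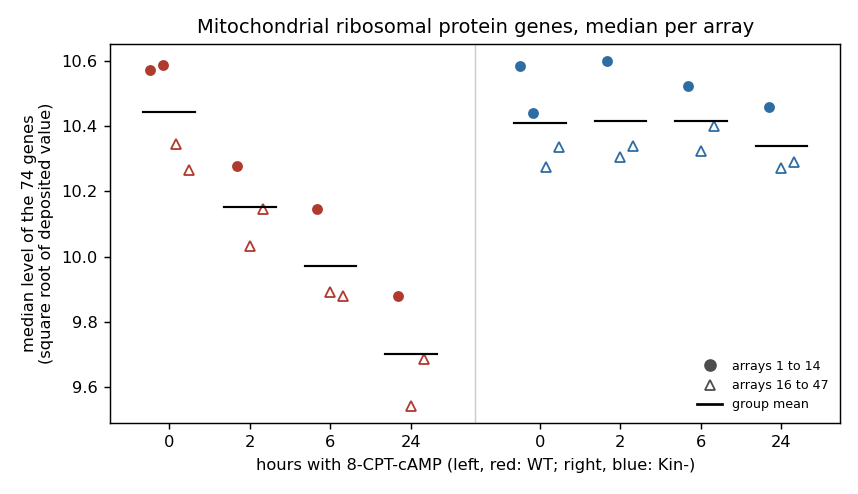
Median level of the 74 mitochondrial ribosomal protein genes (square root of the deposited value) on each array, by hours with 8-CPT-cAMP, WT on the left and Kin- on the right. Circles are arrays 1 to 14, triangles arrays 16 to 47 and bars group means; WT medians step down from 10.27 to 10.59 untreated to 9.54 to 9.88 at 24 h, and Kin- medians stay between 10.27 and 10.60.

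At 2 h in WT, 15 of the 74 genes were lower and 0 higher, where 8.44% of all named genes were lower and 7.25% higher. At 6 h, 39 were lower and 0 higher, where 11.1% of all were lower and 11.0% higher. At 24 h, 51 were lower and 2 higher, where 16.3% of all genes were lower and 16.3% higher. Dim genes seldom pass, so the same shares were taken over the 5063 genes at least as bright as the dimmest of the 74: 16.2% were lower and 11.8% higher at 2 h, 23.4% and 20.3% at 6 h, and 34.5% and 26.4% at 24 h. The share of the 74 that were lower was 20.3% at 2 h, 52.7% at 6 h and 68.9% at 24 h. Read against the bright genes, the 2 h count of lower genes is near the background, and the counts at 6 and 24 h lie above it. The counts of higher genes, 0, 0 and 2, lie below the background at each time. The 2 h count depended on the model: it was 31 with the array series as a block and 36 with the array set as a term, for which no background was computed.

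The median change of the 74 genes was −0.29 at 2 h, −0.46 at 6 h and −0.59 at 24 h, beside 0.05, −0.03 and −0.01 over all named genes. The change was below 0 in 71, 70 and 69 of 74 genes at these times. Within arrays 16 to 47 alone the medians were −0.19, −0.42 and −0.54, and within arrays 1 to 14 alone −0.27, −0.38 and −0.49. Groups of arrays did not overlap, with the treated one below, for 22 genes at 2 h (11.4% of all genes), 38 at 6 h (21.9%) and 49 at 24 h (16.8%). A fall of at least 1 that passed was seen for 0 genes at 2 h, 2 at 6 h and 12 at 24 h, where 5.8% of all genes fell that far at 24 h. Shares of the bright genes were not computed for non-overlap or for falls of this size. All named genes include many dimmer ones, so their shares are no like background here. All 3 comparisons share the untreated arrays.

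**Figure D2:**
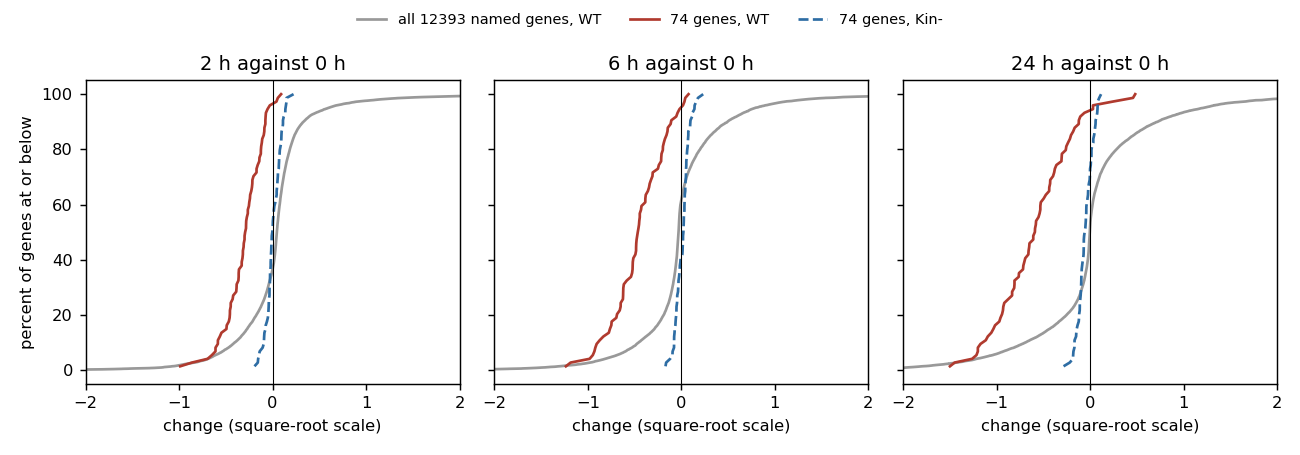
Cumulative share of genes (percent at or below) against the change from 0 h (square-root scale), at 2, 6 and 24 h. The red line for the 74 genes in WT lies left of the grey line for all 12393 named genes over most of its height and meets it in the lowest few percent, with medians of −0.29, −0.46 and −0.59, while the dashed line for the 74 genes in Kin- crosses the middle at 0.00, 0.02 and −0.06.

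The times at which genes passed differed, though 63 of the 74 had a change below 0 at all 3 times, and a difference in onset was not tested. Of the 53 genes that passed at 24 h, 13 had been lower at all 3 times, 2 at 2 and 24 h, and 25 at 6 and 24 h, while 11 were lower and 2 higher at 24 h only. Mrps33 was lower at 6 h only, and 20 genes passed at none of the times. Passing as lower at all 3 times was seen for 3.49% of all named genes, and the share of the bright genes was not computed. In 34 of the 74 genes the group mean fell at every step, and the lowest WT group was 24 h for 48 genes, 6 h for 16 and 2 h for 10. These patterns, and a change below 0 at all 3 times, were not counted over all genes, so no background stands beside them. Between successive times, 6 genes fell from 2 to 6 h and 0 rose (6.38% of all genes fell and 7.64% rose), and from 6 to 24 h 13 fell and 5 rose (9.84% and 9.85% of all genes). Among the bright genes 11.3% fell and 13.4% rose from 2 to 6 h, and 21.2% fell and 15.7% rose from 6 to 24 h. The shares of the 74 that fell in these steps, 8.11% and 17.6%, were thus no higher than that background. The shares that rose (0 and 5 genes) were below it too. Array numbers run through 0, 2, 6 and 24 h in series of 4, and with the series as a block 31 genes passed at 2 h, 34 between 2 and 6 h and 38 between 6 and 24 h. These counts therefore moved with the way arrays were paired, and no background was computed under the block. Without array 17, 9 genes passed at 2 h, and without array 18, 24 genes passed at 6 h. From 2 to 6 h the count was 1 without array 18, 2 without array 38, 3 without array 17 and 12 without array 3, and from 6 to 24 h it was 10 without array 19.

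Among small-subunit genes the largest fall was that of Mrps28, whose product has a bacterial counterpart. Mrps28 measured 10.18, 10.40, 9.52 and 9.60 untreated, 9.51, 8.58 and 8.92 at 6 h and 9.11, 7.87 and 8.29 at 24 h in WT. Its 24 h arrays all lay below the untreated ones, its 6 h arrays did so narrowly, and array 4 stood above the other 24 h arrays. The change at 24 h was −1.50 ± 0.28 (SE; n = 3 against 4; limma adjusted p = 0.000194). In Kin- cells Mrps28 measured 9.66 to 10.32 untreated and 9.81 to 10.31 at 24 h, with overlapping groups.

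Mrps18b, from a family related to a bacterial small-subunit protein but classed as mitochondria-specific, was low from the first time on. Its WT levels were 10.57, 10.61, 10.16 and 10.24 untreated, 9.73, 9.16 and 9.33 at 2 h, 9.71, 8.87 and 9.06 at 6 h and 9.50, 8.45 and 8.88 at 24 h. All treated arrays were below all untreated ones. The changes were −0.99 ± 0.22 at 2 h (adjusted p = 0.00282), the largest of the 74 at that time, −1.18 ± 0.22 at 6 h (0.00036) and −1.45 ± 0.22 at 24 h (1.56e-05).

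Mrps22 and Mrps25, both mitochondria-specific small-subunit proteins, had their largest step between 6 and 24 h. Mrps22 measured 10.95, 10.94, 10.84 and 10.91 untreated, 10.61, 10.48 and 10.54 at 2 h, 10.69, 10.75 and 10.65 at 6 h and 10.16, 9.31 and 9.74 at 24 h. The 2 h and 6 h arrays all lay under the untreated ones, those at 2 h below those at 6 h (changes −0.37 ± 0.13, adjusted p = 0.0671, and −0.21 ± 0.13, 0.343), and the 24 h arrays far under all of these (−1.17 ± 0.13, 2.99e-07). Its step from 6 to 24 h, −0.96 ± 0.14 (adjusted p = 2.86e-05), was the largest such fall among the 74. Mrps25 measured 10.05, 9.77, 9.59 and 9.81 untreated, 9.44, 9.30 and 9.27 at 6 h and 9.09, 8.08 and 8.60 at 24 h. Its arrays did not overlap between untreated, 6 h and 24 h groups, and the change was −0.47 ± 0.17 at 6 h (0.0489) and −1.22 ± 0.17 at 24 h (4.54e-06). A second, dimmer probe set of Mrps25 changed by −0.71 ± 0.07 at 24 h (1.2e-07), and another, at a mean level of 2.95, by −0.04 ± 0.06 (0.85). Mrps5, with a bacterial counterpart, measured 9.63, 9.68, 8.94 and 9.07 untreated and 8.48, 7.87 and 8.27 at 24 h, again without overlap. It changed by −0.95 ± 0.21 at 6 h (0.00258) and −1.12 ± 0.21 at 24 h (0.000276).

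Among large-subunit genes Mrpl12 fell most. Its product forms the stalk that receives translation factors and is also known to bind the mitochondrial RNA polymerase. Mrpl12 measured 11.75, 11.83, 11.09 and 11.12 untreated, 11.27, 10.69 and 10.43 at 2 h, 10.82, 9.95 and 9.87 at 6 h and 10.77, 9.62 and 10.17 at 24 h. The untreated arrays split by array set, as did the treated ones, and from 6 h on all treated arrays were below all untreated ones. The changes were −0.65 ± 0.27 at 2 h (adjusted p = 0.133), −1.23 ± 0.27 at 6 h (0.00198) and −1.26 ± 0.27 at 24 h (0.000856), so nearly all of the fall was in place by 6 h.

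Mrpl17 measured 10.77, 10.86, 10.37 and 10.35 untreated, 10.13, 9.35 and 9.50 at 6 h and 9.80, 9.08 and 9.28 at 24 h. The groups did not overlap, with changes of −0.93 ± 0.21 (adjusted p = 0.00204) and −1.20 ± 0.21 (7.61e-05). Mrpl47 measured 10.98, 10.94, 10.52 and 10.63 untreated, 10.50, 10.10 and 10.33 at 2 h, and 9.86, 9.24 and 9.59 at 24 h. It passed at all 3 times, with changes of −0.46 ± 0.14 (0.0355), −0.78 ± 0.14 (0.000382) and −1.20 ± 0.14 (8.39e-07). Mrpl42 measured 12.40, 12.37, 12.06 and 12.20 untreated, 12.06, 11.92 and 11.71 at 2 h, 11.61, 11.18 and 11.37 at 6 h and 11.33, 11.00 and 11.16 at 24 h. Its treated arrays were below the untreated ones throughout, narrowly so for array 2, and it changed by −0.36 ± 0.12 (0.0414), −0.87 ± 0.12 (1.09e-05) and −1.10 ± 0.12 (1.93e-07). Mrpl40 measured 10.65, 10.75, 10.32 and 10.37 untreated and 9.67, 9.29 and 9.44 at 24 h, a change of −1.06 ± 0.14 (3.55e-06).

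Mrpl34 had its lowest level at 6 h. It measured 10.21, 10.24, 9.80 and 9.86 untreated, 10.03, 9.60 and 9.54 at 2 h, 9.33, 8.75 and 9.06 at 6 h and 9.47, 9.26 and 9.37 at 24 h. Arrays at 6 and 24 h lay below the untreated ones, and those at 2 h overlapped them. The changes were −0.31 ± 0.17 (adjusted p = 0.288), −0.98 ± 0.17 (0.000215) and −0.66 ± 0.17 (0.00443).

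The early members Mrpl1 and Mrpl19 had most of their fall by 2 h. Mrpl1, whose bacterial counterpart lies where spent tRNA leaves the ribosome, measured 10.57, 10.41, 10.10 and 10.11 untreated, 9.57, 9.23 and 9.51 at 2 h, 9.79, 9.58 and 9.57 at 6 h and 9.56, 9.15 and 9.39 at 24 h. All treated arrays were below all untreated ones, with changes of −0.86 ± 0.13 (adjusted p = 5.62e-05), −0.65 ± 0.13 (0.000763) and −0.93 ± 0.13 (5.83e-06). Mrpl19 measured 10.31, 10.09, 9.96 and 9.93 untreated, 9.54, 9.21 and 9.40 at 2 h and 9.39, 8.93 and 9.40 at 24 h. It changed by −0.69 ± 0.13 at 2 h (0.000838) and −0.84 ± 0.13 at 24 h (3.41e-05).

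**Figure D3:**
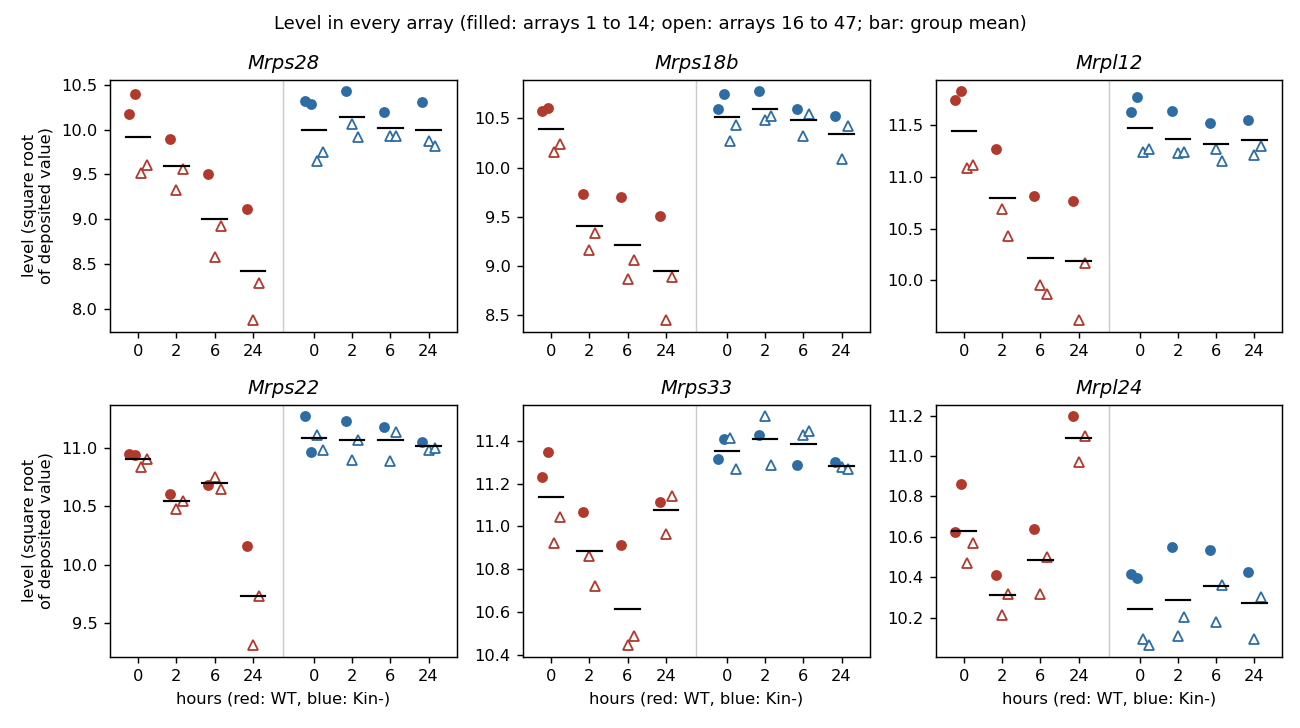
Level of 6 genes (square root of the deposited value) on every array by hours with 8-CPT-cAMP, WT in red and Kin- in blue; filled circles are arrays 1 to 14, open triangles arrays 16 to 47, bars group means, and each panel has its own axis. Mrps28, Mrps18b and Mrpl12 step down in WT, Mrps22 drops between 6 and 24 h, Mrps33 dips at 6 h and returns, and Mrpl24 at 24 h stands above its untreated arrays (10.97 to 11.20 against 10.47 to 10.86).

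Against this, 2 genes were higher at 24 h in WT, both encoding large-subunit proteins with bacterial counterparts. Mrpl33 measured 10.62, 10.64, 10.48 and 10.48 untreated, 10.75, 10.50 and 10.48 at 6 h and 10.95, 11.11 and 11.05 at 24 h. The 24 h arrays were above all untreated ones, a change of 0.48 ± 0.15 (adjusted p = 0.0154; 0.0643 without array 19 and 0.121 on arrays 1 to 14 alone). A second probe set of Mrpl33, dim at a mean of 4.81, changed by −0.03 ± 0.08 (0.977). Mrpl24 measured 10.62, 10.86, 10.47 and 10.57 untreated, 10.41, 10.21 and 10.32 at 2 h, and 11.20, 10.97 and 11.10 at 24 h. Its 2 h arrays were under and its 24 h arrays over all untreated ones, with changes of −0.32 ± 0.13 (0.109) and 0.46 ± 0.13 (0.00696).

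From 6 to 24 h, 5 genes rose: Mrpl24 by 0.60 ± 0.13 (adjusted p = 0.00253), Mrpl33 by 0.46 ± 0.16 (0.0464), and Mrpl9, Mrps33 and Mrps9. Mrpl9 measured 9.98, 9.69, 9.19 and 9.30 untreated, 9.45, 9.01 and 9.18 at 6 h and 9.70, 9.82 and 9.83 at 24 h, a step of 0.56 ± 0.18 (0.0317). Mrps33 measured 11.23, 11.35, 10.92 and 11.05 untreated, 10.91, 10.45 and 10.49 at 6 h and 11.11, 10.97 and 11.14 at 24 h. It fell by 0.52 ± 0.11 at 6 h (0.00119) and by 24 h was back in the untreated range, with a step of 0.46 ± 0.12 (0.00686). Mrps9 measured 11.85, 11.96, 11.62 and 11.74 untreated, 11.33, 11.14 and 11.07 at 6 h and 11.71, 11.45 and 11.30 at 24 h. It regained 0.31 ± 0.10 (0.0466) and was still lower than untreated at 24 h (−0.31 ± 0.10, 0.0193). These rises were near the threshold for some: in 18 other settings the call from 6 to 24 h was lost in 8 for Mrps9 (adjusted p up to 0.31), 7 for Mrpl9 (0.602), 7 for Mrpl33 (0.418), 3 for Mrps33 (0.404) and 1 for Mrpl24 (0.19). Single arrays whose omission ended a call were 4, 18, 19 and 38 for Mrps9, 18, 19, 38 and 39 for Mrpl9, 4, 18, 19, 38 and 39 for Mrpl33 and 18 for Mrps33.

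The smallest changes at 24 h were those of Mrps21 (0.03 ± 0.15, 95% interval −0.29 to 0.35), Mrpl58 (0.03 ± 0.17, −0.32 to 0.38) and Mrps33 (−0.06 ± 0.11, −0.29 to 0.16). The smallest fall that passed at 24 h was that of Mrps9, −0.31. It lies inside the interval of Mrpl58 and just outside those of Mrps21 and Mrps33. Smaller changes lie inside each interval, so the intervals do not show these genes to be unaffected. Mrpl58 measured 10.87, 11.01, 10.68 and 10.66 untreated, 10.55, 10.39 and 10.21 at 2 h and 10.92, 10.73 and 10.84 at 24 h, so it lay under the untreated range at 2 h and inside it at 24 h. Mrps36, which is no ribosome component by present knowledge, changed by −0.18 ± 0.11 (adjusted p = 0.246). The brightest gene, Mrpl51, measured 13.08, 13.09, 12.64 and 12.78 untreated and 12.82, 12.03 and 12.41 at 24 h, with overlap (−0.47 ± 0.20, 0.0803). Level and change were hardly related over the 74 genes (Pearson r = 0.08 across genes, which are no independent replicates).

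**Figure D4:**
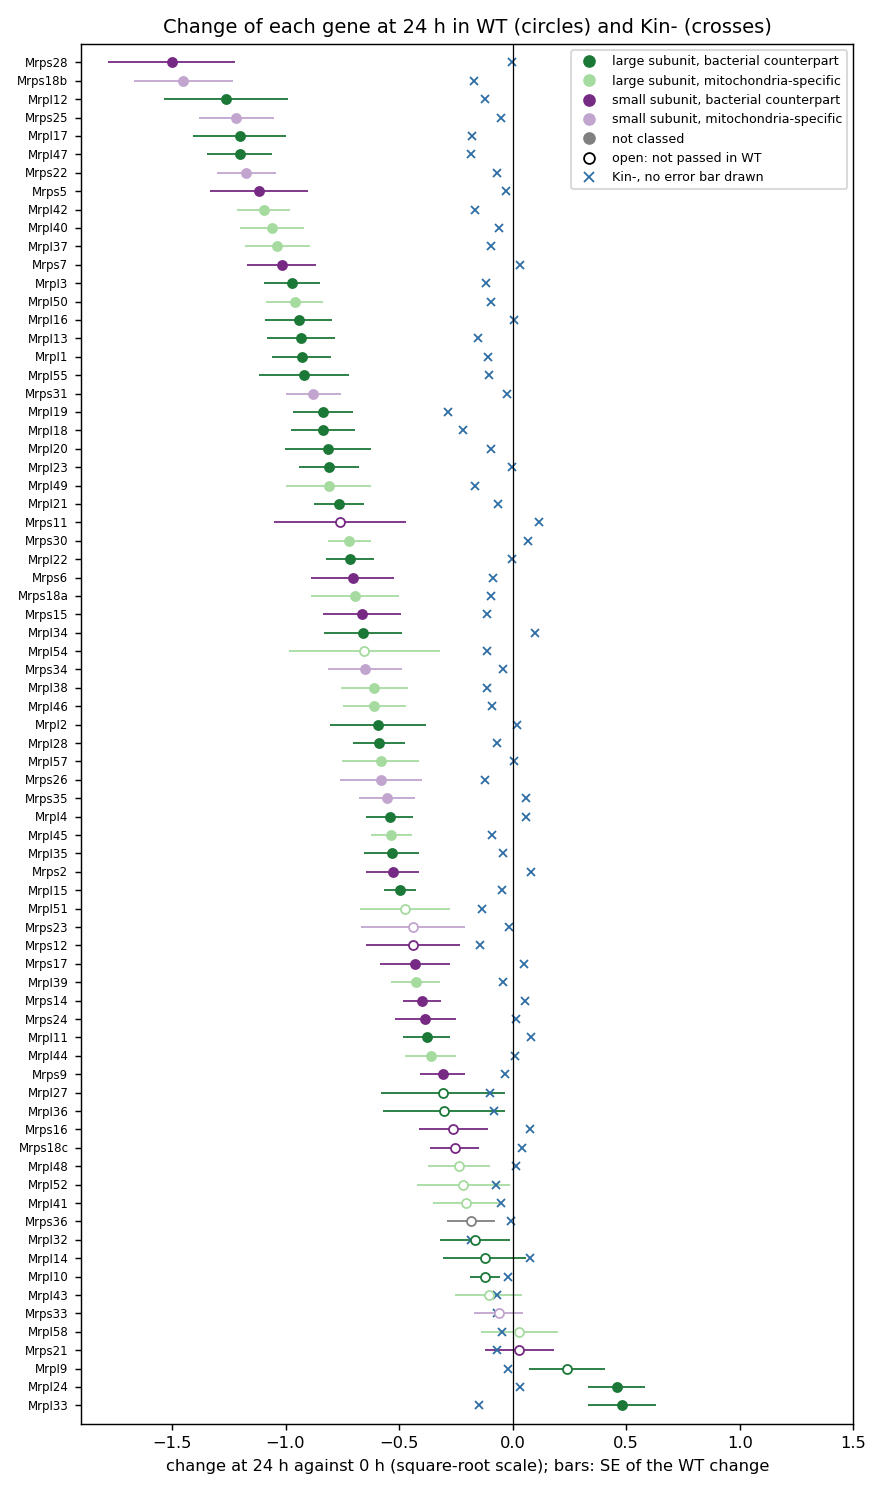
Change at 24 h against 0 h (square-root scale) of all 74 genes, ordered by the change in WT (circles, bars SE; filled where adjusted p was under 0.05), with the change in Kin- as crosses. Colours give the subunit and whether the protein has a bacterial counterpart; WT changes run from −1.50 (Mrps28) to 0.48 (Mrpl33), and Kin- changes from −0.28 to 0.12.

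Both subunits and both kinds of protein took part. At 24 h, 21 of 29 large-subunit genes with a bacterial counterpart were lower and 2 higher (median −0.66), and 13 of 20 mitochondria-specific ones were lower (−0.60). Of the small subunit, 10 of 15 genes with a bacterial counterpart were lower (−0.44) and 7 of 9 mitochondria-specific ones (−0.65). At 6 h the counts were 18 of 29, 9 of 20, 7 of 15 and 5 of 9, all lower. Differences between these classes were not tested. Mrpl47, first listed as mitochondria-specific, and Mrpl55, first in no class, were put in the first class after the values had been seen, because their products have bacterial counterparts. As first drawn, the large-subunit classes had 19 of 27 and 14 of 21 genes lower.

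In Kin- cells none of the 74 genes passed at 2, 6 or 24 h in limma, and 0% of all named genes did. At an unadjusted p under 0.05 there were 0 genes at 2 h, 1 at 6 h (Mrpl44, higher by 0.23) and 1 at 24 h (Mrpl19, −0.28), where 2.17%, 1.93% and 2.32% of all genes reached that level. Median changes of the 74 were 0.00, 0.02 and −0.06. Mrpl19 measured 10.75, 10.85, 10.60 and 10.60 untreated and 10.50, 10.28 and 10.47 at 24 h in Kin-, without overlap (−0.28 ± 0.13, adjusted p = 1).

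The difference between the lines' responses, WT minus Kin-, passed as lower for 5 genes at 2 h, where 4.02% of all genes were lower and 3.7% higher, for 18 at 6 h (6.54% and 5.91%) and for 35 at 24 h (12%), and as higher for Mrpl33 at 24 h (11.7%). Among the bright genes 7.82%, 13.9% and 26.5% were lower and 6.44%, 11% and 19.4% higher at these times. The shares of the 74 that were lower were 6.76%, 24.3% and 47.3%, which at 2 h is no more than that background. With the array series as a block, 27, 46 and 57 genes passed in either direction, and no background was computed for these counts. Leaving out 1 array moved the 2 h count to 2 (array 13) or 3 (arrays 6, 17, 40 or 44), and the 6 h count to 8 (array 18), 10 (array 7) or 30 (array 3). All 35 that were lower at 24 h had also been lower in WT at 24 h, out of 51. The WT change is part of this difference and Kin- changes were small, so that overlap is largely built in. The median difference over the 74 genes was −0.32, −0.47 and −0.55. At 24 h it was −1.50 ± 0.40 for Mrps28 (adjusted p = 0.00761), −1.28 ± 0.31 for Mrps18b (0.0036) and −1.17 ± 0.23 for Mrps25 (0.000726), close to the WT changes themselves. Mrpl33 gave 0.63 ± 0.21 (0.0342), with 10.62, 10.46, 10.16 and 10.10 untreated and 10.44, 9.85 and 10.27 at 24 h in Kin-. Mrpl24 did not pass in this comparison.

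Between the untreated lines, 2 of the 74 genes differed, both higher in Kin- (1.74% of all genes were higher and 1.73% lower; of the bright genes, 3.46% and 3.12%). This count and its direction depended on the array set: with the set as a term 12 passed, 7 of them lower in Kin-, and with array weights 8 passed, 4 lower. Mrpl19 measured 10.31, 10.09, 9.96 and 9.93 in WT and 10.75, 10.85, 10.60 and 10.60 in Kin-, without overlap, a difference of 0.63 ± 0.12 (adjusted p = 0.00515). Mrpl35 measured 11.31, 11.39, 10.99 and 10.98 in WT and 11.71, 11.69, 11.49 and 11.51 in Kin-, again without overlap (0.43 ± 0.11, 0.0407), a call lost in 10 of 19 other settings (adjusted p up to 0.218). The Mrpl19 call was lost in 2 of 19, with the mean of its probe sets (0.107) and on arrays 1 to 14 alone (0.242). The median difference over the 74 was −0.07. Without arrays 5, 14, 16, 36 or 44 in turn 1 gene passed, and the Mrpl35 call was lost on leaving out any of these or array 40.

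Some mitochondrial ribosome proteins carry other names, and these fell as well. Of 5 listed, 4 were measured and all 4 were lower at 24 h. Dap3, a GTP-binding small-subunit protein first known from cell death, measured 11.12, 11.19, 10.96 and 11.19 untreated and 10.26, 10.003 and 10.08 at 24 h (−1.002 ± 0.08). Ptcd3, an RNA-binding small-subunit protein, measured 10.94, 11.21, 11.07 and 11.06 untreated and 10.07, 9.31 and 9.59 at 24 h (−1.41 ± 0.12). Neither pair of groups overlapped. Gadd45gip1 changed by −1.23 ± 0.32 and Chchd1 by −0.96 ± 0.15.

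For the further lists, the shares to read beside the counts at 24 h are those of all named genes (16.3% lower and 16.3% higher) and of the bright genes (34.5% and 26.4%). Of 14 measured genes for ribosome assembly and rRNA modification, 8 were lower and 1 higher at 24 h. Tfb1m, an rRNA methyltransferase of the small subunit, changed by −1.42 ± 0.22 and Noa1, a GTPase of small-subunit assembly, by −1.20 ± 0.12. Nsun4, which methylates small-subunit rRNA and helps join the subunits, went the other way: 6.98, 6.65, 7.31 and 7.15 untreated, 8.95, 9.30 and 9.54 at 2 h and 9.15, 9.30 and 9.25 at 24 h in WT. That rise of 2.21 ± 0.19 was present from 2 h on (2.24 ± 0.19), with no overlap. In Kin- Nsun4 changed by 0.05 ± 0.19 at 24 h.

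Of 7 translation factors, 4 were lower and 1 higher. The elongation factors Gfm1 and Tufm changed by −1.23 ± 0.12 and −0.92 ± 0.18, while the initiation factor Mtif2 first fell (−0.76 ± 0.12 at 2 h) and then rose (0.59 ± 0.12 at 24 h). Mtif2 measured 8.42, 8.18, 8.24 and 8.35 untreated, 7.24, 7.58 and 7.79 at 2 h and 8.95, 8.79 and 8.91 at 24 h, without overlap on either side. Of 10 aminoacyl-tRNA synthetases that serve mitochondria 7 were lower, among them Sars2 (−1.08 ± 0.27) and Pars2 (−1.03 ± 0.17), and Fars2 was higher (0.49 ± 0.16). The 10 include Gars and Kars, which encode the cytosolic enzymes too and whose 24 h arrays in WT lay below all untreated ones. Of 15 genes for mitochondrial transcription and RNA handling 11 were lower. These included Pnpt1, a polynucleotide phosphorylase (−1.41 ± 0.10), its helicase partner Supv3l1 (−1.15 ± 0.08) and Tfam, which packs mitochondrial DNA and starts its transcription (−1.11 ± 0.10). The DNA polymerase Polg was higher (0.53 ± 0.09).

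Among 10 listed regulators of mitochondrial genes, 4 were lower at 24 h and 0 higher. Ppargc1a, Tfeb and Esrra were dimmer than the dimmest of the 74, so the share of the bright genes is no like background for this list. Myc, a transcription factor of growth genes, measured 10.14, 10.11, 11.02 and 10.71 untreated, 8.12, 7.74 and 8.25 at 2 h and 8.89, 8.13 and 8.11 at 24 h (−2.12 ± 0.31). Pprc1, a coactivator related to PGC-1, measured 9.69, 9.997, 9.94 and 9.69 untreated, 9.02, 8.76 and 8.76 at 2 h and 8.73, 7.38 and 7.78 at 24 h (−1.87 ± 0.21). Ppargc1b, another such coactivator, changed by −1.64 ± 0.25 at 2 h and −1.20 ± 0.25 at 24 h. Nrf1, a transcription factor of nuclear genes for mitochondrial proteins, rose by 0.54 ± 0.15 at 2 h and was lower by 24 h, with 8.30, 8.00, 8.13 and 8.08 untreated, 8.65, 8.44 and 8.92 at 2 h and 7.60, 6.82 and 7.18 at 24 h (−0.93 ± 0.15). Whether these changes bear on the 74 genes was not tested.

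Among the ribosomal protein genes of the cytosol, which share the name but not the compartment, 45 were measured. At 24 h 4 were lower and 8 higher, with a median change of 0.09, and at 6 h 4 were lower and 1 higher (0.01). The share that was higher at 24 h is near the 16.3% of all named genes and below the 26.4% of the bright genes. The share that was lower at 24 h is below the 16.3% of all named genes and the 34.5% of the bright genes. The difference from the mitochondrial set was not tested. In Kin- cells at 24 h, 0 genes of these further lists passed.

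The 33 genes with more than 1 probe set gave no opposite calls. Over all 127 probe sets, 24 were lower at 2 h, 59 at 6 h and 75 at 24 h, and 0, 0 and 2 were higher. Of the 22626 probe sets on the array, 3249, 4441 and 6780 passed at these times in either direction. These include dim probe sets, and shares for lower calls alone or for bright probe sets were not computed. At least 2 probe sets passed for 17 of the 33 genes at 24 h, each time in 1 direction. Over the settings other than leaving out 1 array, the weakest change was −0.55 for Mrpl42 and −0.61 for Mrpl17 at 24 h. It was −0.52 for Mrpl34 at 6 h and −0.53 for Mrpl1 at 2 h, each well short of the value given above. For Mrpl47 and Mrpl40 at 24 h it was −1.09 and −0.98. These settings include the mean of all probe sets of a gene, while the values above are those of the brightest.

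Promoter sequence was available from RefSeq (build GRCm38.p6) for 65 of the 74 genes, and the 250 bases before the start were searched. Mrpl13, Mrpl15, Mrpl19, Mrpl38, Mrpl4, Mrpl54, Mrps28, Mrps34 and Mrps35 had no entry. The windows below, 5′ to 3′ on the strand of the gene, are those of the 4 genes with an entry that fell most at 24 h and of the 2 that rose. Capitals mark a match to the core of the NRF1 site or to the ETS site CCGGAAG, on either strand. They lie at chr17:35916441-35916690 (minus strand) for Mrps18b, chr11:120484387-120484636 (plus) for Mrpl12, chr6:92184024-92184273 (minus) for Mrps25, chr7:105811088-105811337 (minus) for Mrpl17, chr5:31613701-31613950 (plus) for Mrpl33 and chr3:87919294-87919543 (plus) for Mrpl24.
Mrps18b: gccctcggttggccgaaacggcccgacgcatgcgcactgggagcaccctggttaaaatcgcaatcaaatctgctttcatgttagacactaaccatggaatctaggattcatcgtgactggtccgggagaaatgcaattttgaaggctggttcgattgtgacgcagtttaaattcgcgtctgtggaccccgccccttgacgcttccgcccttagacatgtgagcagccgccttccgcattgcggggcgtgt
Mrpl12: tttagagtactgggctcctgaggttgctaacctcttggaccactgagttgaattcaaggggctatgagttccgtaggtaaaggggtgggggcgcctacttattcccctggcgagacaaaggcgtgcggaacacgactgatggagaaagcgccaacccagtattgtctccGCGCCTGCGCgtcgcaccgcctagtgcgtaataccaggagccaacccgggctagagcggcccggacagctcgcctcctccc
Mrps25: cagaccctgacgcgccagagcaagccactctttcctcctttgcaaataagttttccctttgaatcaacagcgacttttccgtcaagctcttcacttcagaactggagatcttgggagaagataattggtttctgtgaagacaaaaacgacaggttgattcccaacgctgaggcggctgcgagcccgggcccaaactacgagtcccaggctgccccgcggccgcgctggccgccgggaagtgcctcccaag
Mrpl17: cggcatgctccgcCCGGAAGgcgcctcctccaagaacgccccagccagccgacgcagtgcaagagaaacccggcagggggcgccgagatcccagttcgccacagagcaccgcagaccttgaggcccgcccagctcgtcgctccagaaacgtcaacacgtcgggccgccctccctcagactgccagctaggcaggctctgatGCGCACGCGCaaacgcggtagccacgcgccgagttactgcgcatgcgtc
Mrpl33: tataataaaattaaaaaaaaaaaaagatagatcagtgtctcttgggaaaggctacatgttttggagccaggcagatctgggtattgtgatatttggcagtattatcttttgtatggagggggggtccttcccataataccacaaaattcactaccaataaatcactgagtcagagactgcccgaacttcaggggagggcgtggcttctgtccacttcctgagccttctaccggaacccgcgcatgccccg
Mrpl24: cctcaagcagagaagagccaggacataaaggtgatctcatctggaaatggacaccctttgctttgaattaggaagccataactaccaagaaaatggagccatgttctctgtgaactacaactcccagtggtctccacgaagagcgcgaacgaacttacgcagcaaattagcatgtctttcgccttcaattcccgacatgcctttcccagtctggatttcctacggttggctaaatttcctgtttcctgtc

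Of these windows, only those of Mrpl12 and Mrpl17 hold any of the searched motifs. Mrpl12 has the NRF1 core 81 bases before its start, and Mrpl17 has it 49 bases before and the ETS site 237 bases before. Of the 65 genes, 9 (13.8%) hold the NRF1 core, beside 7.63% of 9887 genes on the array with an entry. The ETS site, bound by GABP among others, is in 16 (24.6% against 12.9%). The YY1 site AAGATGGCG is in 2 (3.08% against 1.17%), the E-box CACGTG in 5 (7.69% against 9.19%) and the cAMP response element TGACGTCA in 2 (3.08% against 2.53%). At least 1 of these motifs, searched on both strands with overlaps allowed, is in 31 genes (47.7% against 28.4%), at a median GC content of 58.0% against 58.4%. The 43 genes that were lower at 24 h hold one of the motifs in 18 cases, and the other 22 in 13. A match describes letters in this window, and its use in these cells was not measured.

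Many of these genes stand back to back with another gene. A start on the opposite strand within 1000 bases was found for 24 of 65 genes (36.9%), against 16.6% of the array genes with an entry. In 17 cases the neighbour was on the array (Mrpl46 and Mrps11 are each other's neighbour and count in both). At 24 h in WT 6 of the 17 neighbours were lower, 5 higher and 6 did not pass. Of all named genes 16.3% were lower and 16.3% higher, and of the bright genes 34.5% and 26.4%, to which the neighbours' shares are close. Of 9 cases with the ribosomal gene lower, the neighbour was also lower in 2 and higher in 3.

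The 5 stretches between the starts of pairs in which both genes passed are printed for the contrast between them: the same short DNA lies before 2 genes that moved together or apart. They are given on the strand of the ribosomal protein gene, with capitals for a match to the E-box or the cAMP response element. They lie at chr17:12916092-12916328 (minus) for Mrpl18 and Tcp1, chr16:18876638-18876749 (minus) for Mrpl40 and Hira, chr17:46646081-46646220 (plus) for Mrpl2 and Klc4, chr19:6057756-6057946 (minus) for Mrpl49 and Fau and chr4:49521084-49521175 (minus) for Mrpl50 and Zfp189.
Mrpl18/Tcp1: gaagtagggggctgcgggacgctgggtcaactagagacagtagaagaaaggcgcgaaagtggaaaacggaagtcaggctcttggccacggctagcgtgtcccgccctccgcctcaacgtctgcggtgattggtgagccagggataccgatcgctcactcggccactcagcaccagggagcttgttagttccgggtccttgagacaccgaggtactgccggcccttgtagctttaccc
Mrpl40/Hira: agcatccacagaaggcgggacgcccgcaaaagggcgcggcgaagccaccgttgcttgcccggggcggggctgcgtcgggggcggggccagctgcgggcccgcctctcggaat
Mrpl2/Klc4: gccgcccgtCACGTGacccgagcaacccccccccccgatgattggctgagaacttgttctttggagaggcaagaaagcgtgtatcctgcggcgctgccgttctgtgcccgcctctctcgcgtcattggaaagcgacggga
Mrpl49/Fau: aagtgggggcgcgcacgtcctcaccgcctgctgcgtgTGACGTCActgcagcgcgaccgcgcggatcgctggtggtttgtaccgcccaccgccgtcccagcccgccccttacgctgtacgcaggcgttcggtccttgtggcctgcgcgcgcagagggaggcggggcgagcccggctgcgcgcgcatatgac
Mrpl50/Zfp189: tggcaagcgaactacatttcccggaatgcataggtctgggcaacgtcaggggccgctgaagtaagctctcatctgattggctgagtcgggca

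Mrpl18 and Tcp1, a subunit of the cytosolic chaperonin, both fell, by 0.84 ± 0.14 and 0.68. Mrpl40 and Hira, a histone chaperone, also fell together, by 1.06 and 1.81. In the other pairs the neighbour rose: Klc4, a kinesin light chain, by 0.96 beside −0.59 for Mrpl2. Fau, which encodes a cytosolic ribosomal protein, rose by 0.36 beside −0.81 for Mrpl49, and the zinc finger gene Zfp189 by 0.77 beside −0.96 for Mrpl50. The limma adjusted p of the neighbours was 4.18e-06 for Tcp1, 3.15e-11 for Hira, 0.000339 for Klc4, 4.59e-05 for Fau and 0.0399 for Zfp189. The E-box before Mrpl2 and the cAMP response element before Mrpl49 lie 131 and 154 bases before those starts.

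**Figure D5:**
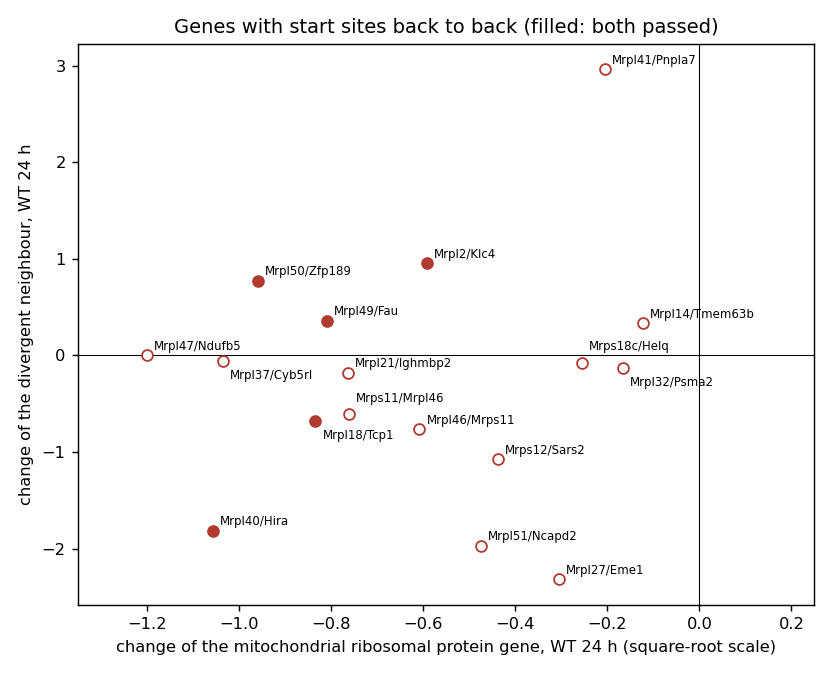
Change at 24 h in WT (square-root scale) of 17 mitochondrial ribosomal protein genes (horizontal) and of the gene that starts back to back with each (vertical); filled points are pairs in which both passed. Neighbours run from −2.32 (Eme1, beside Mrpl27) to 2.96 (Pnpla7, beside Mrpl41) over a narrow range of the ribosomal protein genes.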

How the data were processed

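The deposited table holds 1 processed score per probe set and array for 26 arrays; the software, the normalization and the scale behind these deposited scores were not given in the sources used here. The values ran from 0.375 to 267. Their square root (0.612 to 16.4) was read as close to a log2 intensity, an assumption; power 0.75 and untransformed values were tried. The authors' normalization between arrays was kept.

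Groups came from the labels. Probe sets were named from GEO's platform annotation: 20380 have 1 symbol, 691 several and 1555 none, and 3 probe sets that share a symbol of this family with another gene were not used. A linear model with 1 mean per group was fitted to all probe sets with limma 3.58.1 (lmFit, eBayes) in R 4.3.3, with Benjamini-Hochberg adjustment over 22626 probe sets; the code was tested on simulated data. Changes are given ± SE, and intervals are 95%. The number of arrays limits the precision (median SE 0.15 at 24 h).

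Members and lists were chosen with earlier results of these data known. Named genes are the largest changes that passed (10, 5 and 3 at 24, 6 and 2 h), those that passed against the majority, the 3 brightest, 3 dimmest and 3 least changed, and those that differed between untreated lines. From each other list they are the 2 largest in each direction, and every listed regulator that passed at 24 h. Dap3, Chchd1, Tfam, Gars and Kars were named outside this rule. Neighbour pairs, Mrps36 and Mrpl44 were added after the values were seen, and Mrpl47 and Mrpl55 were then put in another class.

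Array numbers follow 0, 2, 6 and 24 h in runs of 4 (such a run is an array series). Deviations from group means correlated within every series (0.23 to 0.70, median 0.37), and 22 of 24 arrays correlated best with their own series, so it was tried as a block. Motifs were searched with Python 3.11.15. No arrays were copies: they differed within groups by a root mean square of 0.170 to 0.454.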

Additional observations from a re-analysis of the deposited data

Results flagged for a closer look

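For 27 named genes and the median of the 74, the untreated arrays of both lines were examined, 56 groups of 4 arrays in all. By Dixon's criterion, which chance meets in about 1 undivided group in 20, 0 had an array that stood apart. Each of these groups holds 2 arrays of each array set. Where the sets differ, the widest gap lies in the middle and the criterion can hardly be met. The 0 therefore does not show that no array is an outlier. The WT and Kin- responses of named genes differed by the test of the difference itself (limma, adjusted over all probe sets) in 20 cases. Many of these genes were named for a large change in WT, which is part of this difference, so the selection favours such cases. Over all named genes the difference passed as lower for 4.02%, 6.54% and 12% at 2, 6 and 24 h. For the bright genes the shares were 7.82%, 13.9% and 26.5%. The cases at 2 h were Mrpl1 (−0.77) and Mrps18b (−1.07). At 6 h they were Mrpl34 (−1.04), Mrps18b (−1.16) and Mrps5 (−0.96). At 24 h the small-subunit genes were Mrps28 (−1.50), Mrps18b (−1.28), Mrps25 (−1.17), Mrps22 (−1.10), Mrps5 (−1.09) and Mrps14 (−0.45). The large-subunit genes at 24 h were Mrpl12 (−1.14), Mrpl17 (−1.02), Mrpl47 (−1.02), Mrpl40 (−0.998), Mrpl37 (−0.94), Mrpl42 (−0.93), Mrpl55 (−0.82) and Mrpl18 (−0.62). Mrpl33 alone was on the other side (0.63), lower in 2 of 3 treated Kin- arrays than in the corresponding untreated array of its series and higher in all treated WT arrays at 24 h.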

How the results depend on the processing

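Counts of the 74 genes that passed are given for each setting that moved them by over 1.5 times, with the reported count in brackets. With the array set as a term, 36 passed at 2 h (15), 31 from 2 to 6 h (6), 34 from 6 to 24 h (18), 27, 50 and 56 in the difference between lines at 2, 6 and 24 h (5, 18 and 36), and 12 between untreated lines (2), where most, 7 of 12, were then lower in Kin-. With the array series as a replicate block the counts were 31 at 2 h, 34 and 38 for the later steps, and 27, 46 and 57 for the difference between lines; the other counts stayed within 1.5 times. Array weights gave 31 at 2 h, 19 and 30 for the later steps, 8 between untreated lines, and 11 and 42 for the difference between lines at 2 and 6 h. Arrays 16 to 47 alone gave 23 and 29 for the later steps, 6 between untreated lines, and 11 and 36 for the difference at 2 and 6 h. Arrays 1 to 14 alone, the smaller set by construction, gave 0, 6 (39) and 28 (53) at 2, 6 and 24 h, 0 for both later steps and between untreated lines, and 0, 0 and 3 for the difference. Fitting only the groups compared gave 25 at 6 h, 1 from 2 to 6 h and 6 from 6 to 24 h, and quantile normalization or the mean of all probe sets gave 1 between untreated lines. Except where stated, the cause was not tested.

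Leaving out 1 array at a time gave 9 to 16 at 2 h, 24 to 46 at 6 h, 43 to 57 at 24 h, 1 to 12 from 2 to 6 h, 10 to 21 from 6 to 24 h, 1 to 2 between untreated lines, 2 to 6, 8 to 30 and 25 to 42 for the difference, and 0 in Kin- at each time. Of the 51 genes lower at 24 h, 51 stayed lower under power 0.75, untransformed values, the array-set term, the block and array weights, 46 under quantile normalization, 50 on arrays 16 to 47 and 28 on arrays 1 to 14, and in each of these all 51 changes were below 0. Among named genes 4 near 0 at 24 h changed sign: Mrpl14 to 0.0047 on arrays 16 to 47; Mrpl58 to −0.013 on arrays 1 to 14 and −0.018 to 0.097 with 1 array left out; Mrps21 to −0.081 on arrays 1 to 14 and −0.059 to 0.11 with 1 left out; and Mrps33 to 0.049 with quantile normalization, 0.070 on arrays 16 to 47, 0.0085 with the block, −0.13 to 0.0085 with 1 array left out, and 0.028 with weights. The few arrays in each group limit what small changes can be told from 0.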
